A study of Saccharomyces cerevisiae with 22 samples.

Results

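The genes described are 38 biosynthetic genes of Saccharomyces cerevisiae, budding yeast, that make lysine, the aromatic amino acids, threonine, serine, proline, cysteine, and the nitrogen carriers asparagine, glutamine and glutamate. They were chosen by pathway and not by a measured value, out of 6002 protein-coding genes of the R64 annotation. For each gene every distinct Ty5 insertion site within 1 kb upstream of the start codon was counted in 22 calling-card libraries. There were 6 lysine genes, 13 aromatic, 5 threonine, 4 serine, 3 proline, 5 nitrogen and 2 cysteine genes.

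In calling-card experiments the retrotransposon Ty5 leaves a copy of itself near the DNA to which a chosen protein was bound. The protein is fused to part of Sir4, which tethers the Ty5 integrase, so that insertions gather near bound DNA. Known activators were profiled singly, 8 barcoded fusions together in a pool, and Thi2 in media with and without thiamine, to map the targets of each. Sites were recovered by inverse PCR from genomic DNA of colonies selected for insertion.

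The control, plasmid and multiplex strains were 1 kind of diploid, MATa/MATα, homozygous for his3∆1, leu2∆0 and ura3∆0 and heterozygous for met15∆0 and for lys2∆0. Both copies of SIR4 and of TRP1, the tryptophan gene used as a marker, were replaced in all of them, the control included (sir4::KanMX, trp1::Hyg). The Sir4-free control was 1 library without any fusion. Gal4, Leu3 and Gcn4 fusions were overexpressed from plasmids in 1 library each. The multiplex libraries held plasmid fusions of Gal4, Kar4, Lee1, Rgm1, Rpi1, Sef1, Sfg1 and Yrm1, each with its own barcode, in 2 pools, which gives n = 2 per fusion. Thi2 was fused at its own locus in a haploid MATa strain with the same his3, leu2, ura3, sir4 and trp1 alleles and met15∆0, grown in complete medium or without thiamine, 1 library each. Cultures had 2% glucose or galactose, and their assignment to libraries was not given in the sources used here.

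Yeast turns aspartate, glutamate and sugar intermediates into amino acids by branched pathways whose first enzymes are often encoded by gene pairs. Gcn4 is the activator known to raise many of these genes when amino acids run short, and Leu3 is known to regulate the making of branched-chain amino acids and responds to a leucine precursor. Ammonia enters through glutamate dehydrogenase and glutamine synthetase, which other regulators tie to the nitrogen supply.

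The libraries held 444512 sites in all, 4755 to 79573 each. Sites of 1 library that share chromosome, position and direction were counted once, whatever their number of reads, and a share is a percentage of all sites in its library. The control, plasmid and Thi2 libraries have no replicates, so their two-sided Fisher's exact tests compare libraries and not conditions, and the 5 comparisons with the control share it. Intervals after shares and ratios are exact at 95%. They, and the upper limits for counts of 0 (3 counts of the total), cover only the error of counting sites and not the variation between libraries. Reads were not used as counts, because reads after PCR are not separate molecules. As a check of the labels, the known target GAL1 had a log2 fold of 5.95 over the control in the Gal4 plasmid library, LEU1 5.20 in the Leu3 library, ARG3 5.32 in the Gcn4 library and THI4 4.33 in the thiamine-starved Thi2 library.

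In the Sir4-free library the 38 upstream windows held 835 of 79573 sites, 1.05% (0.980 to 1.12), very unevenly spread. In the lysine branch LYS20 had 77 sites and LYS1, the last enzyme of the pathway, 3. In the aromatic branch TRP3 had 29 and PHA2, for prephenate dehydratase on the way to phenylalanine, 3. In the threonine branch HOM2 had 40 and THR4, threonine synthase, 7. Of the serine genes SER33, a 3-phosphoglycerate dehydrogenase, had 22 and the phosphatase gene SER2 14. The proline genes had the fewest, 5 at PRO2 and 2 at PRO1, and GLN1 with 75 and GLT1 with 12 were the ends of the nitrogen branch. The cysteine genes CYS4 and CYS3 had 30 and 7. Windows with so few control sites allow only large differences to be called.

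**Figure D1:**
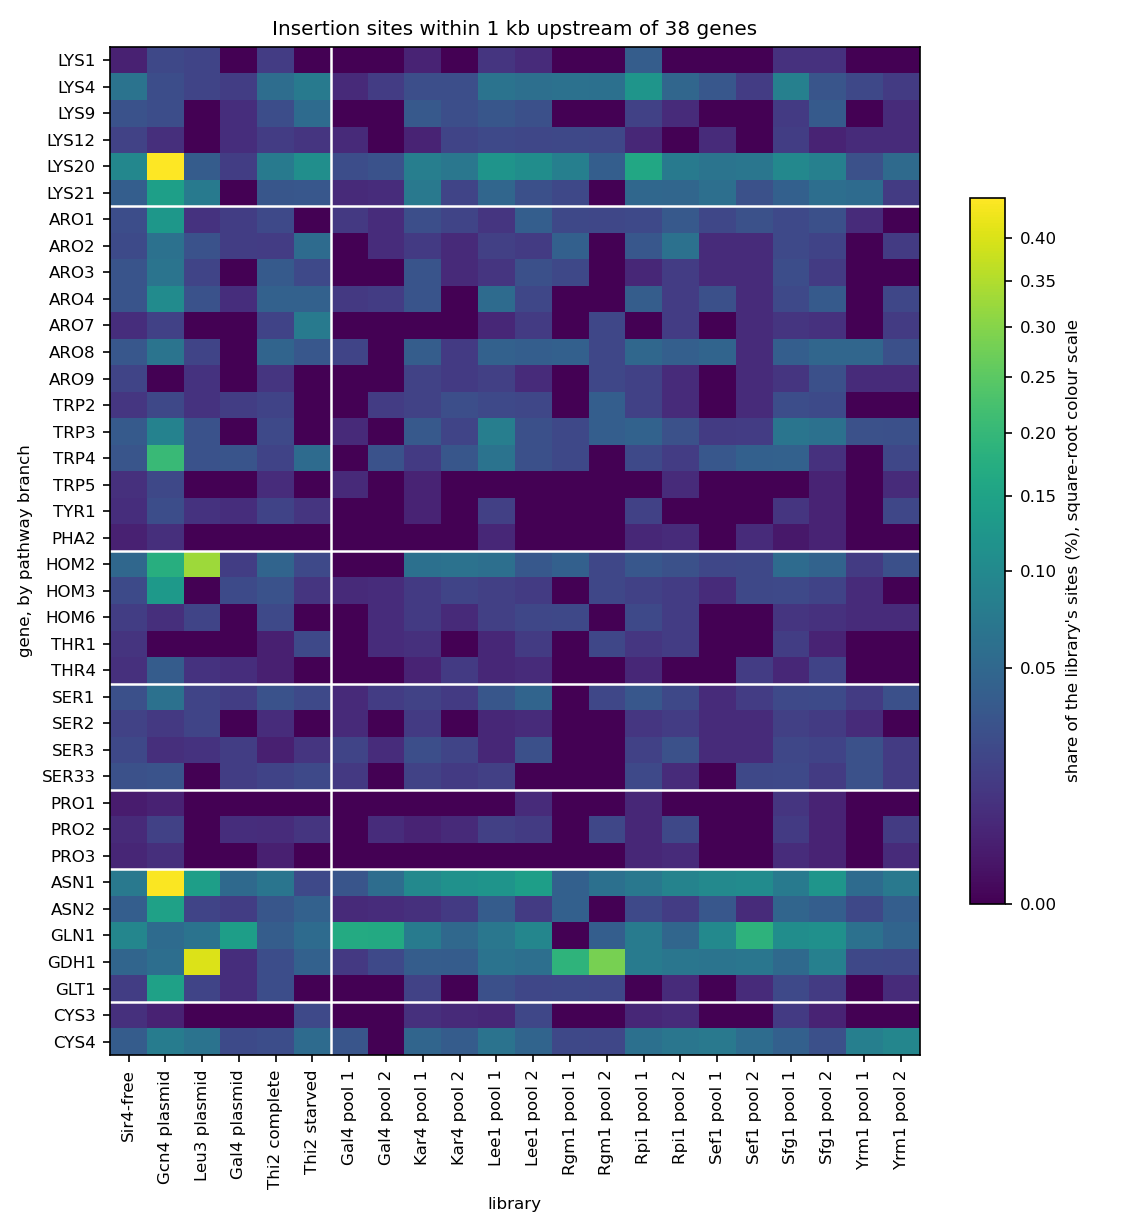
Share of each library's sites (colour, in percent on a square-root scale) within 1 kb upstream of each of the 38 genes (rows, white lines between branches) in the 22 libraries (columns; right of the white line are the 2 pools of the 8 multiplex fusions). LYS20 and ASN1 in the Gcn4 library (0.449% and 0.445%), GDH1 and HOM2 in the Leu3 library (0.403% and 0.328%) and GDH1 in Rgm1 pool 2 stand out.

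The Gcn4 library placed 695 of its 23833 sites upstream of these genes, 2.92% (2.71 to 3.14), against 1.05% in the control, a ratio of 2.78 (2.51 to 3.08). Of 37 genes tested 10 were higher, against a background of 2.97% of all 5159 gene windows tested, and 0 were lower (background 0.252%). The median log2 fold of the 37 was 1.25, and over all windows it was -0.23. By Fisher's exact test 21 of the 37 had an unadjusted p below 0.05 in either direction, as did 8.8% of all windows. The 10 lie in the lysine, aromatic, threonine and nitrogen branches, and 27 of the 37 had a log2 fold above 0.

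The lysine calls were the 2 genes for homocitrate synthase, the first step of the pathway. LYS20 had 107 sites (chromosome 4, 132641 to 133391 as the authors numbered it, on an unnamed build), a share of 0.449% (0.368 to 0.542), against 77 or 0.0968% in the control. That is 4.64-fold (3.43 to 6.30; adjusted p 3.83e-22). Over all 22 libraries its share ran from 0.0149% in the Gal4 plasmid library to this value, with a median of 0.0758%. LYS21 had 34 sites against 32, 3.55-fold (2.12 to 5.94; adjusted p 3.18e-05). The genes of the later steps did not pass, and no difference between steps was tested. LYS4, for homoaconitase, had 6 sites against 52 (adjusted p 0.335), LYS9 6 against 23, LYS12 2 against 14 and LYS1 5 against 3. At LYS1 so few sites allow only a large difference to be called. Of the LYS4 sites 4 and 51 also lie in the window of RTN1, and 4 and 14 were nearest to LYS4.

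Among the aromatic genes TRP4, ARO1 and ARO4 were higher. TRP4, for the second step from chorismate to tryptophan, had 49 sites against 25, 6.54-fold (3.96 to 11.1; adjusted p 4.96e-13). In the other single libraries TRP4 had 3 (Leu3), 4 (Gal4), 5 (Thi2 in complete medium) and 5 (starved). ARO1, the gene of the multi-activity protein that carries out most of the shikimate steps, had 30 against 20, 5.01-fold (2.75 to 9.30; adjusted p 1.92e-06). ARO4, one of the paired genes for the first enzyme of the branch, had 25 against 24, 3.48-fold (1.91 to 6.36; adjusted p 0.000940). Its partner ARO3 had 16 against 24 and did not pass in the 1-kb window (adjusted p 0.281). Within 600 bp, however, ARO3 had 16 against 9 and passed (adjusted p 0.000732). The same held for ARO2, chorismate synthase, and TRP3, of the tryptophan branch, with 15 against 18 and 21 against 29 in the full window (adjusted p 0.134 and 0.0920) and calls within 600 bp (0.0413 and 0.00348). ARO9, an aminotransferase gene, had 0 sites against 15. Of the 13 genes 12 had a log2 fold above 0, the exception being ARO9.

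In the threonine branch HOM3 and HOM2, for the first enzymes, were called. HOM3, aspartate kinase, had 31 sites against 18, 5.75-fold (3.12 to 10.9; adjusted p 1.97e-07). HOM2, aspartate semialdehyde dehydrogenase, had 42 against 40, 3.51-fold (2.22 to 5.55; adjusted p 3.17e-06). HOM6, homoserine dehydrogenase, had 2 against 12, THR1, homoserine kinase, 0 against 8 and THR4 9 against 7 (adjusted p 0.105). THR4 passed by Fisher's exact test when the sites in windows called higher were left out of the totals (log2 2.37; adjusted p 0.0346). No difference between steps was tested.

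In the nitrogen branch both asparagine synthetase genes were higher. ASN1 had 106 sites (chromosome 16, 821641 to 822592), 0.445% (0.364 to 0.538), against 58 or 0.0729%, 6.10-fold (4.39 to 8.56; adjusted p 3.27e-27). Its lowest share over the 22 libraries was 0.0218% in the starved Thi2 library and its median 0.0752%. ASN2 had 35 against 32, 3.65-fold (2.20 to 6.09; adjusted p 1.53e-05). GLT1, glutamate synthase, had 35 against 12, 9.74-fold (4.94 to 20.6; adjusted p 1.60e-11), but all 35 sites also lie upstream of UGA3, an activator gene on the opposite strand whose start codon is 678 bp away. With each site given to the nearest start codon only, 5 stayed with GLT1 and 30 went to UGA3, and GLT1 was no longer called (adjusted p 0.561).

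The uncalled nitrogen genes had many sites. GDH1, the ammonia-fixing glutamate dehydrogenase, had 14 sites against 38 (ratio 1.23, 0.616 to 2.32). GLN1, glutamine synthetase, had 13 against 75 (0.579, 0.295 to 1.05; adjusted p 0.655). All 13 lay more than 600 bp from the start codon, where the control had 29, while within 600 bp the counts were 0 and 46. In the shorter window GLN1 was therefore lower in the Gcn4 library (adjusted p 0.000530), with a share of up to 0.0126% allowed by the 0.

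The serine, proline and cysteine genes gave 0 calls, with 4, 2 and 2 genes tested. CYS4 passed by Fisher's exact test when the sites in windows called higher were left out of the totals (log2 1.38; adjusted p 0.0467). Of its 19 Gcn4 sites 18 also lie in the window of GTO1, and 8 were nearest to CYS4. Together the serine windows had 27 sites and 1.22 times the control share (0.754 to 1.92), the proline windows 7 sites and 2.12 times (0.698 to 6.0), and the cysteine windows 20 sites and 1.80 times (0.992 to 3.19). The same ratio was 2.66 (2.15 to 3.29) for lysine, 3.06 (2.50 to 3.73) for the aromatic genes, 3.30 (2.41 to 4.51) for threonine and 3.15 (2.59 to 3.84) for nitrogen. The intervals of the first 3 branches are wide, and no difference between branches was tested. Of 21 tested genes among 22 others of these pathways 2 were higher, beside the 2.97% of all windows, STR3 for cystathionine beta-lyase with 55 sites against 25 and SHM2 for serine hydroxymethyltransferase with 20 against 22.

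Other windows share sites too. Of the ASN1 sites 88 also fall in the window of NOC4, and 97 of the 106 were nearest to ASN1. All 25 ARO4 sites lie in the window of SPO23 and were nearest to ARO4, and 43 of the LYS20 sites lie in that of MRX19, with 107 nearest to LYS20. All 15 ARO2 sites lie in the window of INO80 and were nearest to ARO2. The HOM2 window overlaps those of CPR1, YDR157W and RPA14, and 38 of its 42 sites were nearest to HOM2. With sites given to the nearest start codon 12 of 36 tested genes were higher, beside 2.76% of the 4423 windows tested that way, with ARO2, ARO3 and TRP3 gained and GLT1 lost.

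**Figure D2:**
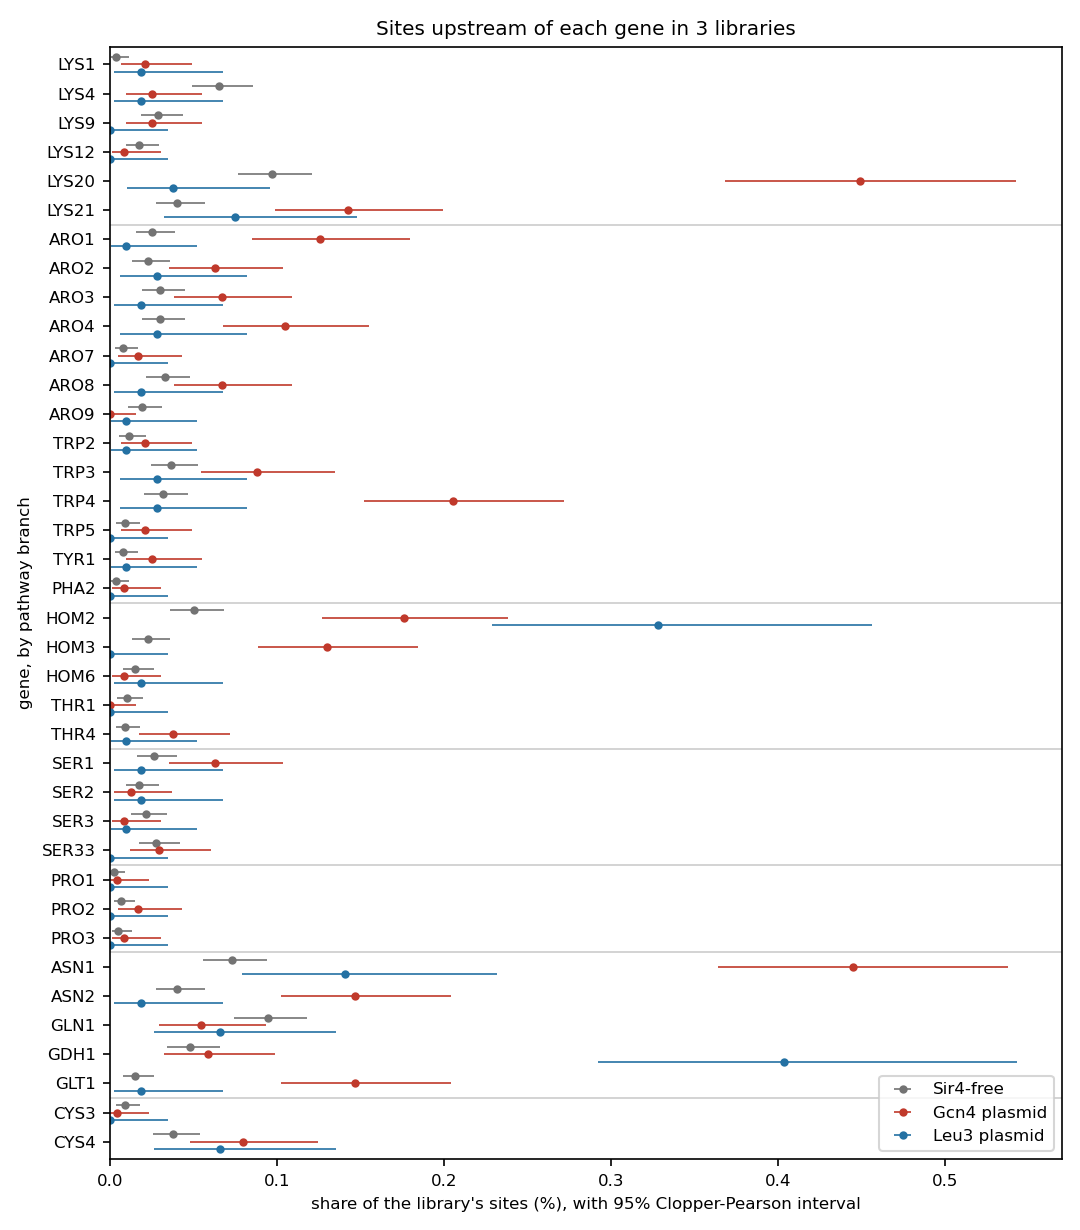
Share of sites (percent, points) with 95% Clopper-Pearson interval (lines) within 1 kb upstream of each of the 38 genes in the Sir4-free (grey), Gcn4 (red) and Leu3 (blue) libraries, by branch. The Gcn4 points of LYS20, ASN1 and TRP4 lie far to the right of the control, and the Leu3 points of GDH1 and HOM2 lie at 0.403% and 0.328%.

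The Gcn4 sites lay nearer to the start codons than the control's, without a test of the difference. Over the 38 windows their median distance from the start codon was 279 bp, with quartiles at 212.5 and 399.5 bp, against 367 bp (220.5 and 611.5) in the control. Within 500 bp lay 559 of the 695 Gcn4 sites and 535 of the 835 control sites. The bin from 201 to 300 bp held 0.982% of all Gcn4 sites, against 0.205% of the control's, and was the fullest bin of the 38 genes in both libraries. Over the windows of all genes the same bin held 17.1% of the Gcn4 sites and was again their fullest. It held 13.9% of the control's, whose fullest bin over all genes was 101 to 200 bp (17.0%). A Gcn4 peak at that distance was therefore not particular to these genes, and its height relative to other genes was not tested. All 49 TRP4 sites fell between 95 and 464 bp, where the control's 25 reached from 15 to 980 bp. At ARO1 the quartiles were 242.75 and 271.25 bp, and at ASN2 159 and 258 bp. LYS20 was different, with a median of 465 bp close to the control's 458 bp. Directions were mixed, as 353 of the 695 insertions pointed the way of the gene. Of the 695 sites 165 matched the exact position and direction of a site in another library, 44 of them in the control.

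**Figure D3:**
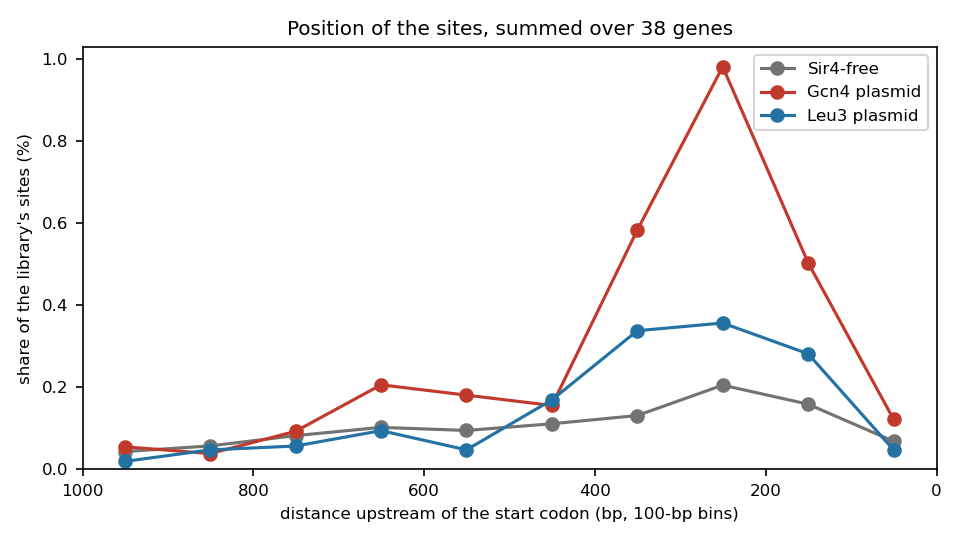
Share of each library's sites (percent) in 100-bp bins of distance upstream of the start codon, summed over the 38 genes, in the Sir4-free (grey), Gcn4 (red) and Leu3 (blue) libraries. The Gcn4 line peaks at 0.982% between 201 and 300 bp and the Leu3 line at 0.356% in the same bin, against 0.205% in the control.

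Leu3 had its members' sites mainly at GDH1 and HOM2. Its library held 155 of 10662 sites upstream of the 38 genes, 1.45% (1.24 to 1.70), and 2 of 35 genes tested were higher (background 2.59%) and 0 lower (background 0.0404%). The median log2 fold was -0.39, against -0.47 over all windows. GDH1 had 43 sites (chromosome 15, 1043126 to 1043874), 0.403% (0.292 to 0.543), against 38 or 0.0478% in the control, 8.45-fold (5.33 to 13.4; adjusted p 2.87e-17). Of these 43 sites 39 lay within 500 bp, against 18 of the control's 38. HOM2 had 35 against 40, 6.53-fold (4.03 to 10.5; adjusted p 7.57e-12), and 30 of the 35 were nearest to HOM2.

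The other nitrogen and threonine genes did not follow GDH1 and HOM2 past the threshold. ASN1 had 15 sites against 58 (1.93-fold, 1.02 to 3.45; adjusted p 0.636). It passed when sites went to the nearest start codon only (0.0484) or when the sites in windows called higher were left out of the totals (0.0408). GLN1 had 7 against 75, LYS20 4 against 77 and HOM3 0 against 18, where 0 allows a share of up to 0.0281%. The nitrogen windows together stood at 2.40 times the control share (1.80 to 3.16), the threonine windows at 3.34 (2.21 to 4.95), the lysine windows at 0.594 (0.333 to 0.989) and the aromatic windows at 0.704 (0.421 to 1.12). Of 20 tested other pathway genes GAT1, a nitrogen regulator, was higher with 98 sites against 44 (1 of 20, beside the 2.59% of all windows). All 98 also lie in the window of FRS2, and 70 were nearest to GAT1.

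Gcn4 and Leu3 differed from each other at 8 of 27 genes tested. LYS20, ASN1, TRP4, HOM3, GLT1, ASN2 and ARO1 were higher with Gcn4 (7 of 27, background 4.61%). LYS20 stood at 11.97-fold (4.54 to 44.7; adjusted p 2.99e-11), ASN1 at 3.16-fold (1.83 to 5.85; 5.12e-05) and TRP4 at 7.31-fold (2.36 to 36.7; 0.000252). HOM3 had 31 Gcn4 sites and 0 Leu3 sites, at least 4.62-fold higher with the 0 set to 3 counts (adjusted p 0.000259). ASN2 and GLT1 each had 35 against 2 (adjusted p 0.00329) and ARO1 30 against 1 (0.00340), and GLT1 was again lost when its sites went to the nearest start codon. GDH1 was lower with Gcn4, at 0.146 times the Leu3 share (0.0736 to 0.271; adjusted p 2.74e-10; 1 of 27, background 7.5%). HOM2, higher than the control in both libraries, had 42 against 35 sites and did not pass (0.537 times, 0.335 to 0.866; adjusted p 0.0698). It passed as lower when sites in windows called higher were left out of the totals (0.00793). LYS21 with 34 against 8 (adjusted p 0.478) and ARO4 with 25 against 3 (0.146) were uncalled as well. Of 14 tested other pathway genes STR3 was higher and GAT1 lower with Gcn4, 1 in each direction beside the same 4.61% and 7.5% of all windows.

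**Figure D4:**
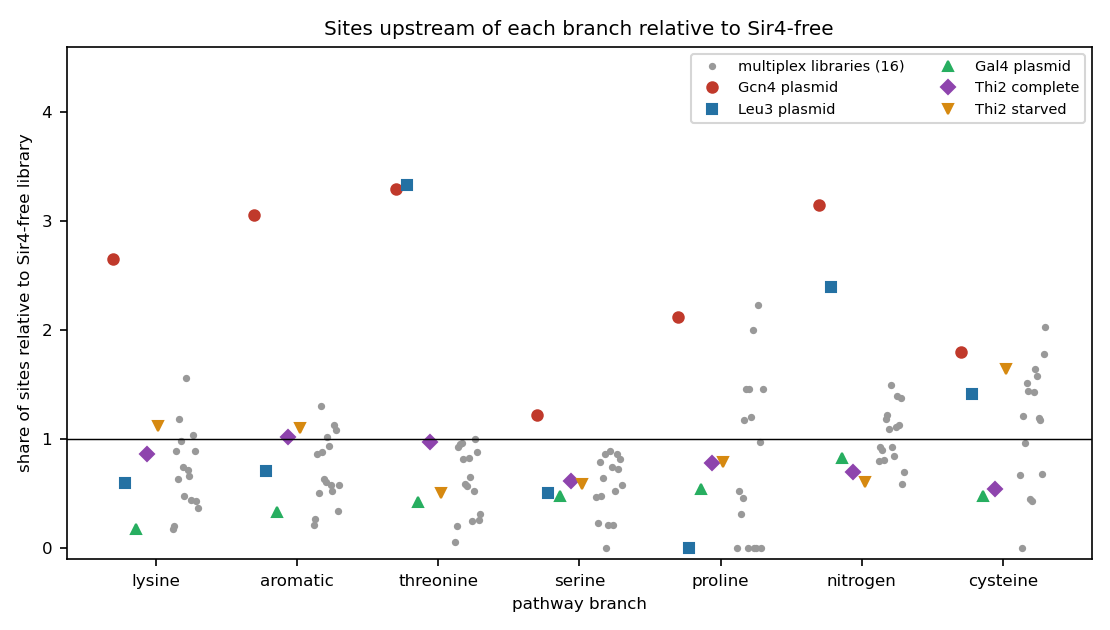
Share of sites summed over the windows of each branch, divided by the share in the Sir4-free library (horizontal line at 1), for the plasmid and Thi2 libraries (coloured symbols) and the 16 multiplex libraries (grey points). Gcn4 lies at 2.66 to 3.30 in the lysine, aromatic, threonine and nitrogen branches and Leu3 at 3.34 and 2.40 in threonine and nitrogen.

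The Gal4 plasmid library had few sites at these genes, 64 of 13383 or 0.478% (0.368 to 0.610), 0.456 times the control share (0.348 to 0.588). Of 34 genes tested 0 were higher (background 3.02%; 7 genes, and 8.64% of all windows, had an unadjusted p below 0.05 in either direction). LYS20 was lower, with 2 sites against 77 (0.154 times, 0.0184 to 0.577; adjusted p 0.0319; 1 of 34, background 0.326%). The median log2 fold was -1.13 for the 34 genes and for all windows alike. Without the sites in windows called higher in the totals, LYS20 was not called (adjusted p 0.946). The gene with most Gal4 sites was GLN1, with 19 against 75 (1.51-fold, 0.859 to 2.52; adjusted p 0.786). These 19 sites lay 693 to 844 bp from the start codon. With the reduced totals GLN1 was called higher (adjusted p 0.00815), and within 600 bp, with 0 sites against 46, it was called lower (0.0436). ASN1 had 7 against 58 and LYS4 2 against 52, both uncalled. Of 21 tested other pathway genes PUT1, for proline oxidase, was higher with 28 sites against 52 (3.20-fold, 1.95 to 5.16; 1 of 21, beside the 3.02% of all windows).

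With Thi2 in complete medium the 38 windows held 245 sites, 0.879% (0.772 to 0.995), which is 0.837 times the control share (0.723 to 0.967), and the nitrogen windows stood at 0.703 times (0.511 to 0.954). Of single genes, 0 of 36 genes tested were higher (background 0%) or lower (background 0.0375%). By Fisher's exact test 1 gene had an unadjusted p below 0.05, as did 7.36% of all windows. GLN1 had 11 sites against 75 (0.419 times, 0.200 to 0.792; adjusted p 0.356), LYS20 21 against 77 and ASN1 19 against 58. Within 600 bp GLN1 had 1 site against 46 and was lower (adjusted p 0.0285).

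In thiamine-starved cells the windows held 86 sites, 0.938% (0.751 to 1.16) or 0.894 times the control share (0.707 to 1.12), and 1 of 34 genes was higher (background 0.48%) and 0 lower (background 0.02%). This was ARO7, chorismate mutase at the fork to phenylalanine and tyrosine, with 7 sites against 6 (10.1-fold, 2.91 to 36.5; adjusted p 0.0255). Its share of 0.0763% was the highest of the 22 libraries, whose median for ARO7 was 0.00620%. The call was lost within 600 bp and with sites given to the nearest start codon (adjusted p 0.609 and 0.105). LYS20 had 10 sites, GLN1 5 and ASN1 2, all uncalled. Starved against complete medium, 0 of 26 genes were higher (background 0.312%) or lower (background 0%), and 2, beside 5.58% of all windows, had an unadjusted p below 0.05 by Fisher's exact test. LYS20 had 10 against 21 sites there, LYS4 7 against 16 and ASN1 2 against 19. None of the 20 other pathway genes tested passed in either comparison with the control, nor any of 15 between the media.

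The GLN1 sites were split by distance, a pattern chosen after its values were seen. In the control 46 of its 75 sites lay within 600 bp, whereas the Gcn4 and Gal4 plasmid libraries and the starved Thi2 library had 0 there, of 13, 19 and 5. Leu3 had 2 of 7 and Thi2 in complete medium 1 of 11. In the multiplex pools 1 and 2, Kar4 had 12 of 18 and 3 of 8 there, Lee1 9 of 13 and 7 of 14, Rpi1 8 of 14 and 3 of 7, and Sfg1 31 of 59 and 11 of 25. Sef1 had 5 of 15 and 15 of 27, Yrm1 2 of 9 and 5 of 7, Gal4 5 of 27 and 7 of 23, and Rgm1 0 of 0 and 1 of 2. None of these sites lay in another gene's window. What separates these libraries at GLN1 was not tested.

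The multiplex pools entered a single quasi-likelihood fit with edgeR over 4993 windows, with every fusion set against the average of its 7 companions and against the single control. SDs are between the 2 pools, the error of a log2 fold is the fitted standard error, and 34 of the 38 genes had enough sites (not PHA2, TRP5, PRO1 or PRO3). Of the 22 other pathway genes 21 were tested for each fusion, and their counts stand against the same shares of all windows as those of the 38. The mean share of the 38 windows ran from 0.411% ± 0.0196 (SD, n = 2) for Gal4 to 1.14% ± 0.105 for Lee1. At LYS20 and ASN1, the genes with most sites, the mean shares were 0.0268% to 0.119% and 0.0443% to 0.130%, below their Gcn4 plasmid shares in every fusion. Neither was called for any fusion in the main fit. Under other settings LYS20 was called higher with Rpi1. With library totals without TMM it was called lower with Gal4 (log2 -1.52 against the other fusions and -1.84 against the control).

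Rgm1, a repressor of the zinc-finger class, was higher at GDH1, with 9 and 14 sites or 0.236% ± 0.0663 (SD, n = 2). The log2 fold over the other fusions was 1.77 ± 0.42 (adjusted p 0.00140; 1 of 34, background 1.9%), and over the control 1.74 ± 0.46 (0.0105; background 1.54%). The mean shares of the other fusions at GDH1 were 0.0170% to 0.0735%, and none of their pools reached either Rgm1 pool. Without pool 2 neither call was kept (adjusted p 0.694 and 0.670). Rgm1 was lower at GLN1, with 0 and 2 sites (log2 -2.75 ± 0.76; adjusted p 0.0132; 1 of 34, background 0.841%), which was lost without pool 1 (0.837) and with DESeq2 (0.315). Against the control 0 of 34 genes were lower in the main fit (background 0.1%). GLN1 was called lower than the control with a replicate block (log2 -2.70; adjusted p 0.0352). The same call came with at least 2 reads per site (adjusted p 0.00610), the nearest start codon only (0.0175) and no minimum of sites (0.0327).

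Gal4 in the pools was higher at GLN1, with 27 and 23 sites or 0.167% ± 0.00134, a log2 fold of 1.85 ± 0.31 against the other fusions (8.81e-08 after adjustment; 1 of 34, background 3.67%) and 1.34 ± 0.33 over the control (0.00156; background 3.67%). Of those sites 22 and 16 lay beyond 600 bp, as the plasmid sites did, and within 600 bp GLN1 was called in neither comparison (adjusted p 0.948 and 0.928). Without pool 1 the call over the control was lost (0.0696). Gal4 had 0 sites at HOM2 in both pools, which the fit called lower than the others (adjusted p 0.0209; 1 of 34, background 0.421%) and than the control (0.00262; background 1.28%). The 0 counts leave room for shares of up to 0.0186% and 0.0216% there, and either pool alone did not pass (adjusted p 0.0784 to 0.380). With a replicate block LYS4 was lower than the control as well (log2 -2.21; adjusted p 0.0364). PUT1, 1 of 21 other pathway genes in each comparison, was again higher, with 51 and 40 sites.

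Sef1 was higher at GLN1 than the others, with 15 and 27 sites or 0.144% ± 0.0624 (log2 1.2 ± 0.32; adjusted p 0.00466; 1 of 34, background 4.77%), but not than the control (0 of 34, background 3.97%), and the call rests on pool 2 (0.9997 without it). With 0 sites in both pools LYS9, saccharopine dehydrogenase, was lower than the control (adjusted p 0.0332; 1 of 34, background 0.481%), and no longer when either pool was left out (0.344 and 0.348). Of the other pathway genes AAT2, aspartate aminotransferase, had 11 and 18 sites and GLY1, threonine aldolase, 30 and 25, both higher than the other fusions and the control (2 of 21 in each, against the 4.77% and 3.97% of all windows above). All of the GLY1 sites also lie in the window of IES6, on the opposite strand, and 11 and 7 of them were nearest to GLY1, against 19 and 18 nearest to IES6.

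Yrm1 was higher at CYS4, cystathionine beta-synthase, with 12 and 14 sites or 0.0886% ± 0.00804. The log2 fold was 1.44 ± 0.40 over the others (adjusted p 0.00735; 1 of 34, background 5.23%) and 1.49 ± 0.45 over the control (0.0243; background 4.07%). All 12 and 14 sites also lie in the window of GTO1, and 9 and 11 were nearest to CYS4. The call over the control was lost with the nearest start codon only (adjusted p 0.159), within 600 bp (0.0667) and with DESeq2 (0.120). Either pool alone did not pass (adjusted p 0.0725 to 0.299). ARO3 had 0 sites in both pools and was lower than the control (adjusted p 0.0341; 1 of 34, background 1.24%), again not with 1 pool (0.306 and 0.330). PUT1, 1 of 21 in each comparison, was higher here too, with 46 and 59 sites.

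Kar4 was higher than the others at HOM2, with 14 and 10 sites or 0.0623% ± 0.00242 (log2 1.90 ± 0.50; adjusted p 0.00483), and at LYS9 with 8 and 4 (log2 3.13 ± 0.81; 0.00349; 2 of 34, background 4.39%). Neither passed over the control (background 1.74% higher), which held 0.0503% and 0.0289% there. HOM2 was lost without either pool (0.113 and 0.0515) and LYS9 without pool 1 (0.196). MEP2, an ammonium permease gene outside the 38, was also higher than the others (1 of 21), with 8 and 11 sites.

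Rpi1 was higher than the others at LYS4, ARO2 and LYS1 (3 of 34, background 3.73%) and at 0 genes over the control (background 1.88%). LYS4 had 22 and 7 sites (log2 1.44 ± 0.39; adjusted p 0.00712), but in pool 1 20 of the 22 were nearest to RTN1, which shares the window, and without pool 1 it did not pass (0.936). ARO2 had 6 and 9 sites (log2 2.07 ± 0.58; 0.0122) and was not called without pool 2 (log2 1.62) or with DESeq2 (adjusted p 0.126). All of these ARO2 sites also lie in the window of INO80, on the opposite strand, and 4 and 7 were nearest to ARO2. LYS1 had 7 and 0 sites (log2 3.55; 0.0245), so its call came from pool 1. With a replicate block LYS20 was also called, with 29 and 11 sites (log2 0.92; adjusted p 0.0485). The same call came with the nearest start codon only (log2 1.00; adjusted p 0.0461).

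Sfg1, the fusion with most sites, was higher than the others at 6 of 34 genes against a background of 10.6%. They were TRP3 with 37 and 14 sites (log2 1.46 ± 0.36; adjusted p 0.00365), HOM2 with 30 and 10 (1.41 ± 0.45; 0.0261), ASN2 with 26 and 9 (1.26 ± 0.40; 0.0287), LYS4 with 47 and 7 (0.96 ± 0.32; 0.0339), ARO3 with 14 and 3 (2.02 ± 0.69; 0.0378; with a replicate block 0.0518) and LYS9 with 7 and 8 (2.23 ± 0.76; 0.0385). None passed over the control, where 0 of all windows were higher (background 0% higher, 0.02% lower), and none was called without pool 1 or with DESeq2. With sites given to the nearest start codon LYS4, which shares its window with RTN1, and ARO3 did not pass (adjusted p 0.129 and 0.121). SER2 was gained that way (0.0398). Within 600 bp LYS4, ARO3 and LYS9 did not pass (0.0729, 0.118 and 0.0576), and TRP2 was gained (0.0349). SHM1, for serine hydroxymethyltransferase, and GLN3, a nitrogen regulator, were the other pathway genes called (2 of 21). Lee1 was higher at 0 of 34 genes over the others (background 0.521%) and over the control (background 0%). ASN1 had 22 and 21 sites with Lee1, LYS20 22 and 16 and GLN1 13 and 14. No fusion other than Gal4 and Rgm1 was lower than the others at any of the 34 genes (background 1.12% for Kar4, 0.841% for Lee1, 0.481% for Rpi1, 0.02% for Sef1, 1.42% for Sfg1 and 0.701% for Yrm1). Against the control 0 were lower for Kar4 (background 0.12%), Lee1 (0.0401%) and Rpi1 (0.1%), and of the other pathway genes PUT1 was lower with Rgm1 than with the others, at 1 and 2 sites (1 of 21).

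**Figure D5:**
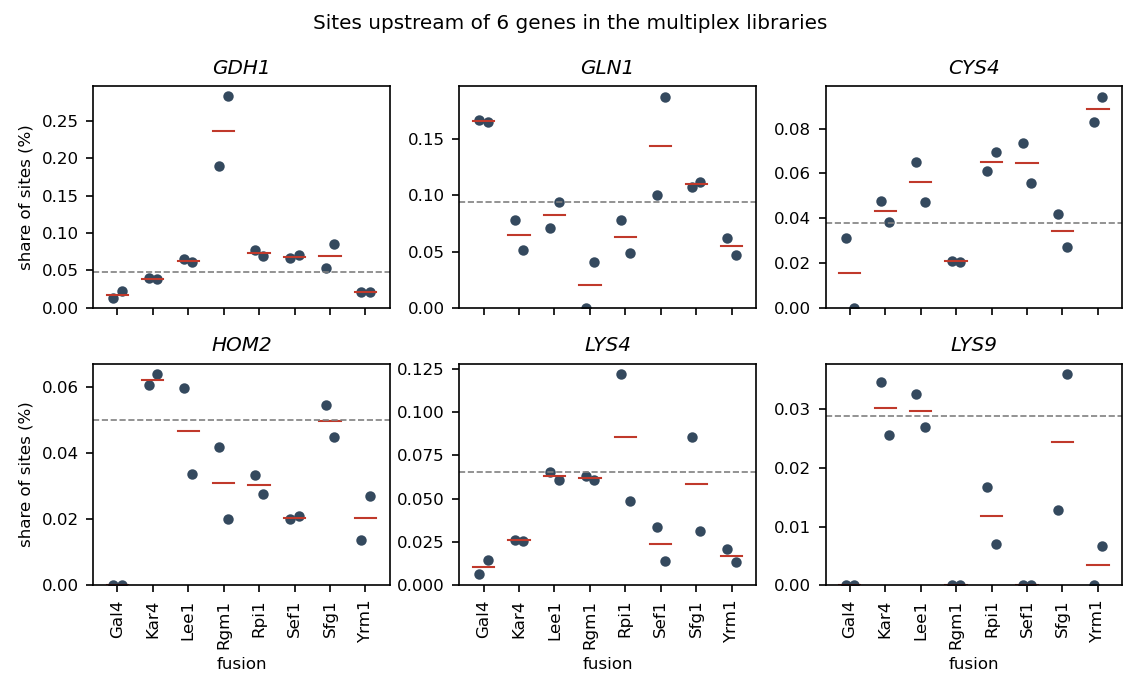
Share of sites (percent) upstream of GDH1, GLN1, CYS4, HOM2, LYS4 and LYS9 in the 8 multiplex fusions: points are the 2 pools, red bars their mean, dashed lines the share in the Sir4-free library. Both Rgm1 points at GDH1 lie above all others (mean 0.236%), as do both Yrm1 points at CYS4 (mean 0.0886%), and both Gal4 points at HOM2 are at 0.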

How the data were processed

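Per the labels, each deposited file lists insertion sites with a chromosome, position, direction and the authors' count of reads there, not normalized. Aligner, genome build and read filters were not given in the sources used here. Each distinct site was counted as 1. Start codons came from the R64 annotation, shifted by 385 bp on chromosome 11 beyond 150 kb. Annotation and data were within 60 bp in all 31 segments of 150 kb that hold the 38 genes.

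Single libraries were compared by two-sided Fisher's exact tests over every gene window that held 5 sites or more in the pair. The 16 multiplex libraries, alone or with the control, were fitted in edgeR 4.0.16 (R 4.3.3, limma 3.58.1; glmQLFit, glmQLFTest, TMM factors 0.702 to 1.59) over windows with at least 10 multiplex sites, with a biological coefficient of variation of 0.0916 and 8 residual degrees of freedom. Where the control, 1 library, was in the fit, it was assumed to vary like the multiplex groups. Leaving out a pool drops only the library of the fusion tested, and the library left was assumed to vary like the other groups. P values were adjusted by Benjamini-Hochberg over all windows of a comparison (threshold 0.05). Log2 folds add 0.5 site in single comparisons. A fitted fold of a gene at 0 in both pools depends on the prior count and is not printed. Other steps used Python 3.11.15 with scipy 1.17.1, numpy 2.4.6, matplotlib 3.10.9 and pandas 2.3.3.

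The series text describes 8 fusions pooled in 1 experiment with 2 replicates, so a replicate number marks a shared pool. Over 318 windows with at least 160 multiplex sites the pool differences of any pair of fusions had a median correlation of 0.0669 (28 pairs, -0.0451 to 0.198, 11 above 0.1). Values with a replicate block stand beside the results whose call they changed. The P values of the multiplex libraries rest on the spread between the 2 pools, estimated over all 8 fusions together and not for each fusion alone.

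On simulated counts 63% of windows changed 4-fold and 100% changed 8-fold were recovered between the Gcn4 library and the control (5171 windows), and for Gal4 in the pools 72% and 99% (4645 windows). The changed windows were drawn only from those above a minimum of control or expected multiplex sites. The Gcn4 rates therefore do not cover windows as sparse as those of LYS1, PHA2 and PRO1 in the control. Genes are named by a rule: all called members, up to 3 uncalled ones with most sites in each single-library comparison, and the members with most and fewest control sites in each branch. ARO2, ARO3, TRP3 and others were added after their values were seen. The members, the list of 22 other pathway genes and the tests were chosen with earlier results of these data known.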

Additional observations from a re-analysis of the deposited data

How the results depend on the processing

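Alternatives were a 600-bp window, at least 2 reads per site, each site given to the nearest start codon only, totals without the sites in windows called higher, other filters and priors, and, in the multiplex fits, library totals without TMM, DESeq2 1.42.0, a replicate block and leaving out each pool. For single genes called, 342 alternative values kept direction and call, 77 kept direction only and 5 reversed. Reversed were GLT1 in Gcn4 against Leu3 (log2 -0.023) and LYS4 with Rpi1 (-0.35) with sites given to the nearest start codon, LYS1 with Rpi1 (-1.36 without replicate 1 to 4.41 without replicate 2) and LYS4 with Sfg1 (-0.070 to 1.23 likewise), and GLN1 with Gal4 against the control within 600 bp (-0.080). The causes were not tested.

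Of the counts of the 38 genes called in single libraries, the Gcn4 count of 10 higher ran from 10 to 14 and the Leu3 count of 2 from 2 to 3. Within 600 bp there was 1 lower for Gcn4 and 1 for Thi2 in complete medium, and 0 higher for starved Thi2, which also had 0 with the nearest start codon. The Gal4 count was 1 higher with reduced totals, and its 1 lower became 0 with those totals, with at least 2 reads and with the nearest start codon. Gcn4 against Leu3 had 2 lower with reduced totals.

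Against the other 7 fusions, the counts within 600 bp were 0 higher for Gal4 and Sef1, 1 for Kar4, and 0 lower for Rgm1. With at least 2 reads there were 0 lower for Gal4 and 2 for Rgm1, and with the nearest start codon 0 lower for Gal4. With library totals there were 4 lower for Gal4, 1 higher for Lee1 and 0 lower for Rgm1. DESeq2 gave 1 higher for Kar4, 0 for Rpi1, Sef1 and Sfg1, and 0 lower for Rgm1. Leaving out 1 pool gave 0 to 1 higher for Kar4, 0 to 1 for Rgm1 and Sef1, 1 to 3 for Rpi1, 0 to 2 for Sfg1 and 0 for Yrm1, and 0 lower for Gal4 and 0 to 1 for Rgm1.

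Against the control, within 600 bp 0 were higher for Gal4 and Yrm1 and 0 lower for Sef1 and Yrm1. With at least 2 reads 0 were higher for Gal4, Rgm1 and Yrm1, 1 was lower for Rgm1 and 0 for Sef1 and Yrm1. With the nearest start codon 0 were higher and 0 lower for Yrm1 and 1 lower for Rgm1, which also had 1 with no minimum of sites. With library totals 0 were higher for Gal4 and Yrm1, 8 lower for Gal4 and 2 for Yrm1. DESeq2 gave 0 lower for Sef1 and 0 higher and lower for Yrm1. With the replicate block 2 were lower for Gal4 and 1 for Rgm1, and the block changed no other count by over 1.5 times. Leaving out 1 pool gave 0 to 1 higher for Gal4 and Rgm1, 0 for Yrm1, and 0 lower for Gal4, Sef1 and Yrm1. Over all windows the higher counts moved most for Sfg1 against the others (527; 15 to 793) and Lee1 (26; 1 to 110).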
